A study of Mus musculus with 4 samples.

Results

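Astrocyte identity genes are the genes by which astrocytes, the main support glia of the brain, are usually recognised in tissue and single-cell data. The set was chosen by gene symbol and holds Gfap, Aqp4, Slc1a2, Slc1a3, Aldh1l1, Aldoc, Gja1, Gjb6, S100b and Agt. All 10 were among the 15409 gene rows of the deposited files, and all 10 passed the filter of a mean of at least 1 CPM (reads per 1000000 reads of the library total), as did 13912 genes in all. Brain septal tissue was compared between TCRb-/- mice, which carry no T cell receptor beta chain and so lack the alpha-beta T cells, and wild-type (WT) mice. Every mouse, of either genotype, had been held in a restraining cone for 30 min on 3 days and was killed 1.5 h after the last session, and no unrestrained group was analysed here. Each genotype had 2 libraries, of which replicate 1 came from experiment 1 and replicate 2 from experiment 2, and pairs of values are given in that order. Tissue of 4 to 5 mice was pooled for a library, so that the spread between libraries is a spread between pools. Age, sex and strain background were not given in the sources used here.

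Astrocytes take up glutamate and potassium released by neurons, hold water channels on the endfeet that wrap blood vessels, and are joined to each other by gap junctions. Their genes fall into roles: a cytoskeletal filament protein (Gfap), glutamate transporters (Slc1a2, Slc1a3), a water channel (Aqp4), gap junction proteins (Gja1, Gjb6), metabolic enzymes (Aldoc, Aldh1l1), a calcium-binding protein (S100b) and a secreted hormone precursor (Agt). Several are not exclusive to astrocytes: Slc1a3 and Gfap are also made by neural stem cells, and S100b by ependymal cells and some oligodendrocytes. Agt is known to be made mainly by astrocytes of the diencephalon and brainstem and much less by those of the cortex.

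The promoters of 3 members are shown because the results below turn on them: Agt and Slc1a2 were the members called between experiments, and Gfap had the highest genotype difference. Each window runs from 250 bases before to 50 bases after a transcription start, read 5′ to 3′ on the strand of the gene, from RefSeq in build GRCm38.p6. Windows were matched by symbol for 9 of the 10 members, and Aqp4 had none. Capitals mark every match, on either strand, to the TATA box (TATAAA), the STAT motif (TTCNNNGAA), the NFI core (TTGGC), the AP-1 motif (TGANTCA) or the glucocorticoid receptor core (AGAACA), and the marked matches do not overlap one another.
Agt, chr8:124569657-124569956, minus strand: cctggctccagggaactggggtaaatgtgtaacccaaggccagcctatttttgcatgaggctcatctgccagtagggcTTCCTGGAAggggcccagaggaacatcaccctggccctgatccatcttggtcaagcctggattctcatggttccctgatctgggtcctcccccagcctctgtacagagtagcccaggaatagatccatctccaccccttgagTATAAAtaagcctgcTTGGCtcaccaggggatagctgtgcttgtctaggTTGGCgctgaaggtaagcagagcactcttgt
Gfap, chr11:102897151-102897450, minus strand: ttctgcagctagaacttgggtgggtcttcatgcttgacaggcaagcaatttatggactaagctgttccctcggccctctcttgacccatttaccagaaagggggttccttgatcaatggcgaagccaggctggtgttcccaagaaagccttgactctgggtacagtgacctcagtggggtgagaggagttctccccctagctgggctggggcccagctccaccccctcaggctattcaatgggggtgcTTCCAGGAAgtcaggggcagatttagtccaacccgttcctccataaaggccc
Slc1a2, chr2:102706188-102706487, plus strand: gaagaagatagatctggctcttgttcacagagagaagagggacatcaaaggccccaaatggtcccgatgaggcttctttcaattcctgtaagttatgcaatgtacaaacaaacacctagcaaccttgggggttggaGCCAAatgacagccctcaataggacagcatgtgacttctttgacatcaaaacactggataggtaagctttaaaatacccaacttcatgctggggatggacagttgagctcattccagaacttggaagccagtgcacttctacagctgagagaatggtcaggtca

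The Agt window held a TATA box that begins 30 bases before the start, a STAT match that begins 172 bases before it, and an NFI core on each side of the start. The Gfap window held a STAT match that begins 2 bases before the start, and the Slc1a2 window a single NFI core. The Gfap and Slc1a2 windows lie at starts inside the extent that GENCODE gives the genes, not at the outermost start. Among the 9 members with a window, a STAT match was found in 4 (Gfap, Agt, Slc1a3 and Aldoc) and an NFI core in 4 (Agt, Slc1a2, Aldoc and S100b). A TATA box was found in 2 (Agt and Slc1a3), an AP-1 match in 1 (Gja1) and a glucocorticoid receptor core in 1 (Slc1a3). Those counts are per gene, and Aldoc has 2 windows. Of all 32851 windows, 8.30% held a STAT match, 46.7% an NFI core, 13.6% a TATA box, 7.81% an AP-1 match and 19.0% a glucocorticoid receptor core. These are matches of letters, not measured binding.

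Library totals ran from 19988137 to 26210790 reads, and 1 read was worth between 0.038 and 0.050 CPM. Trbc2, which encodes a constant segment of the deleted chain, had 0 reads in both TCRb-/- libraries, where 3 reads would be 0.122 and 0.150 CPM, and 6.45 and 3.85 CPM in the WT libraries. Of 12 septum markers fixed for this report, 11 were listed and had reads in all 4 libraries. Markers of neighbouring regions were read too and differed between the experiments. Striatum markers summed to 4517 and 1006 CPM in TCRb-/- and 4044 and 2458 CPM in WT. In the same order, choroid plexus markers summed to 2155 and 6921 CPM and 1319 and 4209 CPM. With 2 libraries a group, an exact permutation test of 1 value cannot give a p below 0.333. The tests below are therefore limma fits across all genes tested, two-sided, on log2(CPM + 1) with Benjamini-Hochberg adjustment.

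Together the 10 members took 2839 and 2910 CPM in TCRb-/- and 2585 and 2690 CPM in WT. Aldoc, the brain form of the glycolytic enzyme aldolase, made up between 54.9% and 55.6% of that sum in every library. It was the 30th most abundant of the 13912 genes tested. In bulk tissue, fewer astrocytes and less RNA per astrocyte cannot be told apart.

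**Figure D1:**
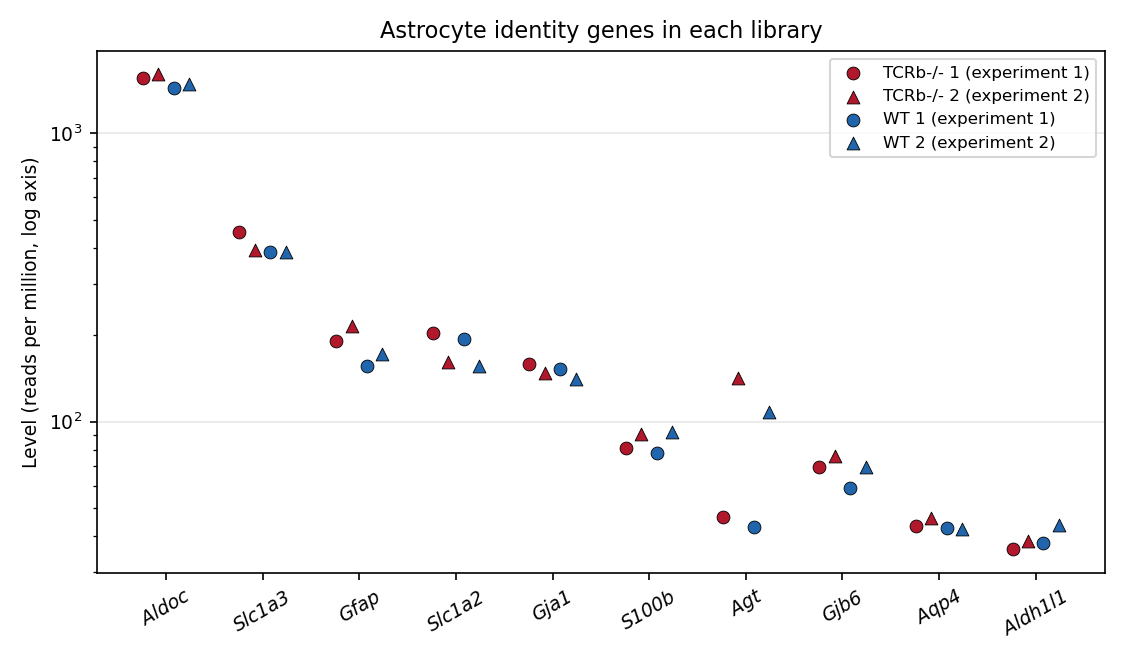
Level of each astrocyte identity gene (CPM, log axis) in the 4 libraries, ordered by the mean. Colour gives the genotype and shape the experiment, and each point is 1 library of pooled mice. Agt is the only gene whose circles and triangles lie far apart, at 46.8 and 43.2 CPM against 142 and 108 CPM.

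Levels were compared between genes per kilobase of the longest protein-coding transcript. On that scale (CPM per kb, mean of 4 libraries) the order was Aldoc at 545, Slc1a3 at 97.5, Gfap at 69.0, S100b at 57.4, Gja1 at 47.2, Agt at 44.9, Gjb6 at 32.5, Slc1a2 at 15.4, Aldh1l1 at 9.36 and Aqp4 at 8.66. Aldoc, Slc1a3 and Slc1a2 did not overlap with their neighbours in that order in any library. Gfap (58.8 to 80.7 CPM per kb over the libraries) overlapped with S100b (52.3 to 61.8), Agt (22.9 to 75.0) with Gfap, S100b, Gja1 and Gjb6, and Aldh1l1 (8.65 to 10.5) with Aqp4 (8.39 to 9.18). Those ranges do not order the neighbours, although within each of the 4 libraries Gfap was above S100b and Aldh1l1 above Aqp4. The order also depends on the transcript taken: with the exons of all annotated transcripts joined, Slc1a3 was at 47.6, Gja1 at 14.6 and Gfap at 43.3 CPM per kb.

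The comparison of genotypes asked whether astrocyte gene levels differ in septal tissue that developed without T cell receptor beta. At the adjusted threshold of 0.05, limma called 0 of the 10 members, as it called 0 of 13912 genes (0%), and each member had an adjusted p of 1.00. At an unadjusted p under 0.05 it found 0 members, and 43 of all genes (0.309%). Genotype was the only term of that fit, so differences between experiments counted as spread in it. With the experiment as a block, 0 members passed the adjusted threshold, as against 2 of all genes (0.0144%). Every member's SE was smaller with the block, for example 0.07 against 0.18 for Slc1a2 and 0.07 against 0.13 for Aldoc. The SEs below are those without the block unless it is named. At an unadjusted p under 0.05 the blocked fit found 2 members, Gfap and Agt, and 5.64% of all genes. The members nonetheless lay mostly on one side of 0: 8 of 10 were higher in TCRb-/- within both experiments, against 27.0% of all genes tested. Their median log2 difference was 0.10, at 0.09 in experiment 1 and 0.09 in experiment 2, beside 0.00069 over all genes tested. Genes of 1 cell type share their source, so the 10 are not independent observations.

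**Figure D2:**
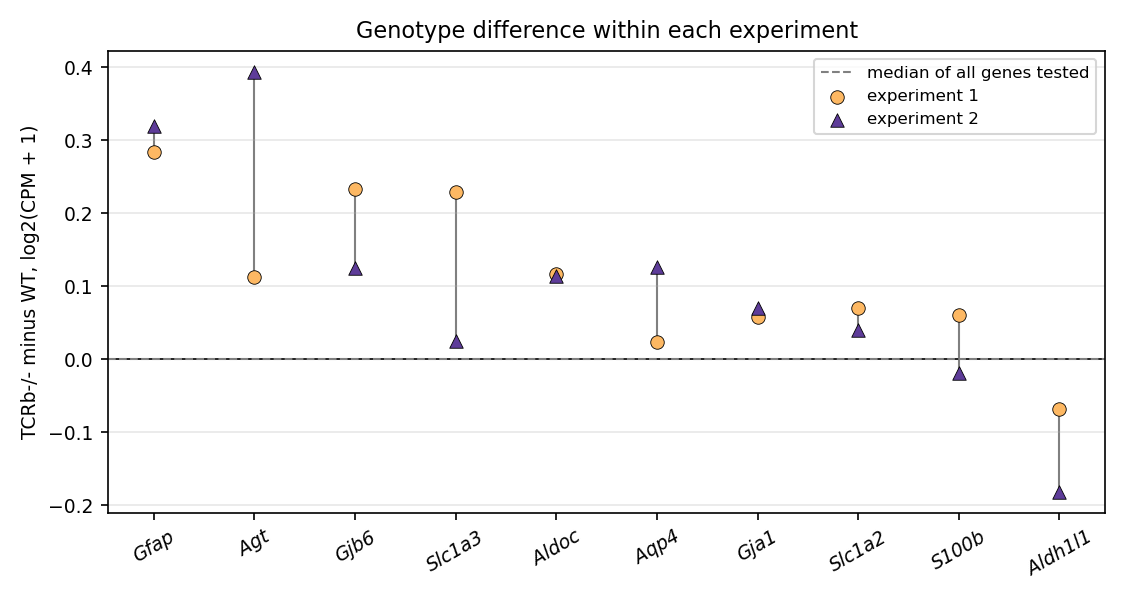
TCRb-/- minus WT difference of each member on the log2(CPM + 1) scale, within experiment 1 (circles) and experiment 2 (triangles), with grey lines joining the experiments and a dashed line at the median of all genes tested. Gfap is at 0.28 and 0.32, Aldh1l1 is below 0 in both experiments, and S100b is on either side of 0. None of these differences passed the adjusted test.

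Gfap encodes the intermediate filament of astrocytes that is raised in reactive gliosis, and lies on chromosome 11 from 102887336 to 102900912 (GRCm38, protein-coding). It had 190 and 214 CPM in TCRb-/- and 156 and 171 CPM in WT. Both TCRb-/- libraries thus lay above both WT libraries, and the means were 202 ± 17.0 and 163 ± 10.99 CPM (SD, n = 2 each). The log2 difference was 0.30 (SE 0.13, unadjusted limma p 0.0679). With the experiment as a block the SE was 0.07 and the unadjusted limma p 0.00206, with an adjusted p of 0.714. The size was close in both experiments, with TCRb-/- at 1.22 times WT in experiment 1 and 1.25 times in experiment 2.

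Slc1a3, the glutamate transporter also called GLAST, had 454 and 395 CPM in TCRb-/- and 387 and 388 CPM in WT. The genotypes did not overlap, but TCRb-/- replicate 2 was only 1.02 times its WT counterpart, and the log2 difference of 0.13 (SE 0.13) rested on experiment 1. Slc1a2, the other main glutamate transporter of astrocytes, also called GLT-1, had 203 and 160 CPM against 193 and 156 CPM, which overlapped between genotypes (log2 difference 0.05, SE 0.18).

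Aqp4, the water channel of astrocyte endfeet, had 43.5 and 46.4 CPM in TCRb-/- and 42.8 and 42.4 CPM in WT, with a log2 difference of 0.07 (SE 0.13). Among the gap junction genes, Gjb6 had 69.5 and 75.9 CPM against 59.0 and 69.5 CPM (0.18, SE 0.14). Gja1, the more abundant connexin, had 159 and 148 CPM against 153 and 141 CPM (0.06, SE 0.12). Neither connexin separated the genotypes when the experiments were pooled, though both were higher in TCRb-/- within each experiment.

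Aldoc had 1557 and 1600 CPM in TCRb-/- and 1436 and 1478 CPM in WT, with no overlap. Its log2 difference was 0.12 (SE 0.13), at 0.117 in experiment 1 and 0.114 in experiment 2. Aldh1l1, a folate enzyme that is widely used as a marker of all astrocytes, had 36.1 and 38.5 CPM in TCRb-/- and 37.9 and 43.8 CPM in WT. It was the only member that was lower in TCRb-/- in both experiments, with a log2 difference of -0.13 (SE 0.15) that did not pass the test. S100b had 80.9 and 90.6 CPM against 77.6 and 91.7 CPM, a difference of 0.02 (SE 0.15). Its locus overlaps Dip2a on the other strand, and the strand setting of the counting was not given in the sources used here, so reads of the pair cannot be told apart.

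Agt encodes angiotensinogen, the precursor of the angiotensins, and lies on chromosome 8 from 124556534 to 124569706 (GRCm38, protein-coding). It had 46.8 and 142 CPM in TCRb-/- and 43.2 and 108 CPM in WT. TCRb-/- was higher in both experiments, at 1.08 and 1.32 times WT, but the genotypes overlapped widely because the experiments differed. The log2 difference was 0.25 (SE 0.63), or 0.25 with an SE of 0.09 and an unadjusted limma p of 0.0225 with the block (adjusted p 0.848). Without TCRb-/- replicate 2 it was -0.54 and without WT replicate 1 it was -0.40, and each of those fits leaves the experiments unequal between the genotypes.

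Both TCRb-/- libraries lay above both WT libraries for 4 of the 10 members (Gfap, Slc1a3, Aqp4 and Aldoc), against 9.76% of all genes tested. Of the markers of other cells, 0 were called by genotype without the block and 1 with it (Ttr, a choroid plexus gene, adjusted limma p 0.0323). Of 8 ependymal markers tested, 7 were higher in TCRb-/- within both experiments, and their sum was 184 and 226 CPM in TCRb-/- against 141 and 203 CPM in WT, which overlapped. All 13 choroid plexus markers were higher in TCRb-/- within both experiments, but 0 of them separated the genotypes when the experiments were pooled. The choroid plexus median of 0.55 was 0.51 within experiment 1 and 0.60 within experiment 2. It was -0.095 without TCRb-/- replicate 2 and -0.10 without WT replicate 1. The ependymal median of 0.26 was 0.36 and 0.17 within the experiments, and 0.06 and 0.0088 in the same fits. Each of those fits leaves the experiments unequal between the genotypes. Striatum markers had a median of 0.17 in experiment 1 and -1.26 in experiment 2. Of 10 neuron markers, 0 were higher and 4 lower within both experiments, and they summed to 6889 and 7176 CPM in TCRb-/- and 7622 and 7402 CPM in WT. Microglia markers summed to 183 and 184 CPM against 176 and 172 CPM. Of 9 microglia markers tested, 5 were higher and 0 lower within both experiments, and 3 had both TCRb-/- libraries above both WT libraries. Of 6 endothelial markers tested, 4 were higher and 1 lower within both experiments, and 1 separated the genotypes in this way. Their median was 0.20, or 0.08 with a pseudocount of 5 and 0.01 without TCRb-/- replicate 1. Of 8 neural stem cell and neuroblast markers, 8 were higher in TCRb-/- in experiment 1 (median 0.22) and 1 in experiment 2 (median -0.09). Of 10 oligodendrocyte markers, 9 were higher in experiment 1 (median 0.15) and 1 in experiment 2 (median -0.05). No listed marker of these lists was at 0 reads in any library. The part of these other cells in the members' genotype differences was not tested.

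The experiments were then compared, with both genotypes on each side. Agt rose in experiment 2 and Slc1a2 fell, and the other 8 members did not pass the test. That is 2 of 10 members called, against 23.7% of all genes tested, 1 of 10 higher against 8.95% and 1 of 10 lower against 14.7%, so that the members were called about as often as other genes. With the genotype as a block, the same 2 members were called, against 24.7% of all genes. The direction of calls over all genes depends on scaling: 37.8% of 3292 calls were higher in experiment 2, and 50.6% of 3227 after quantile normalization. The members' median log2 difference was 0.09, beside -0.03 over all genes tested. It was -0.011 without TCRb-/- replicate 2.

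**Figure D3:**
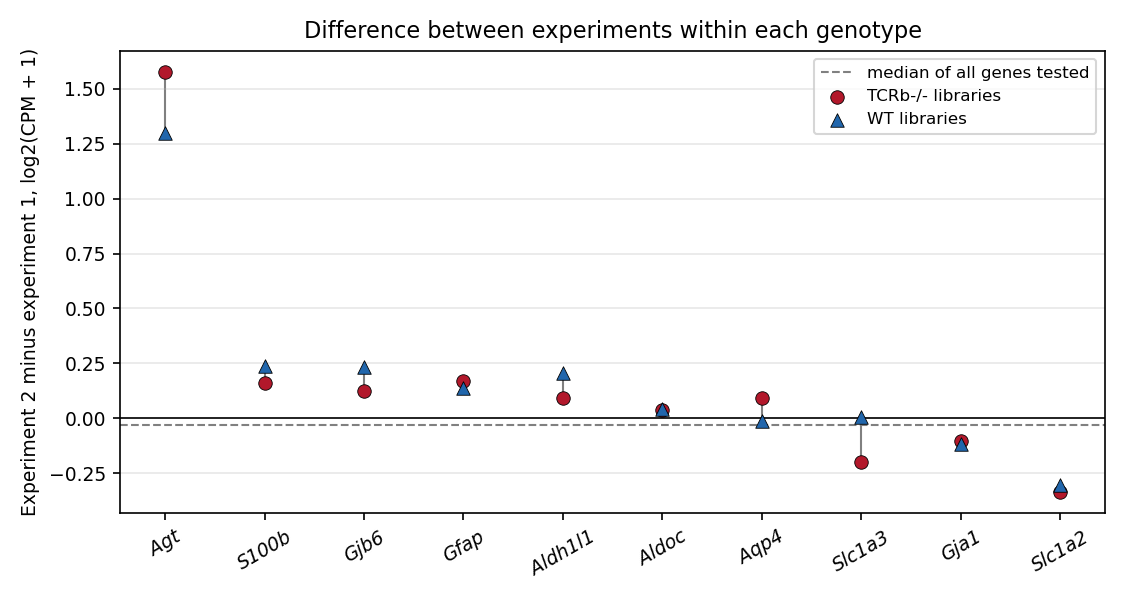
Experiment 2 minus experiment 1 difference of each member on the log2(CPM + 1) scale, within TCRb-/- (circles) and within WT (triangles), with a dashed line at the median of all genes tested. Agt is at 1.578 and 1.297, and Slc1a2 is at -0.34 and -0.31. The other members lie between -0.20 and 0.24.

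Agt was 3.03-fold higher in experiment 2 than in experiment 1 among TCRb-/- libraries and 2.49-fold higher among WT libraries. The means were 45.0 ± 2.54 CPM in experiment 1 and 125 ± 24.1 CPM in experiment 2 (SD, n = 2 each). The log2 difference of 1.44 (SE 0.12, adjusted limma p 0.00255) was the 19th highest of 13912 genes. It rests on 1133 to 2834 reads a library. Its adjusted p ranged from 4.26e-04 to 0.0444 over the alternatives with all libraries and from 1.38e-08 to 0.0173 with any 1 library left out. Agt made up 1.65% and 1.67% of the members' sum in the experiment 1 libraries and 4.87% and 4.00% in the experiment 2 libraries. The next highest difference of a member was 0.20, for S100b.

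Markers of regions and of choroid plexus also differed between the experiments, in both directions. Of 8 thalamus markers, 5 were called higher in experiment 2 and 0 lower, with a median log2 difference of 1.43 within TCRb-/- and 0.49 within WT. They summed to 429 and 854 CPM in TCRb-/- and 435 and 572 CPM in WT. Tcf7l2, a transcription factor of thalamic neurons, rose from 43.6 to 182 CPM in TCRb-/- and from 56.5 to 108 CPM in WT (adjusted limma p 0.00669). Of 13 choroid plexus markers, 12 were called higher and 0 lower, with a median of 1.33. All 10 striatum markers were called lower, with a median of -1.54 (-0.90 without TCRb-/- replicate 2). Of 8 cortex and hippocampus markers, 5 were called lower and 0 higher, with a median of -1.02. Septum markers had a median of 0.25 (0.14 without WT replicate 2), with 3 called higher and 1 lower. The part of tissue makeup in the Agt difference was not tested.

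Slc1a2 lies on chromosome 2 from 102658659 to 102790784 (GRCm38, protein-coding). It had 203 and 193 CPM in the TCRb-/- and WT libraries of experiment 1 and 160 and 156 CPM in those of experiment 2, with no overlap. The log2 difference was -0.32 (SE 0.06, adjusted limma p 0.0133). The call was lost without TCRb-/- replicate 1 (adjusted limma p 0.0507) and without a mean-variance trend (0.0712). Its longest transcript, at 11595 bases, is the longest of the members. Over the 13544 genes tested that have an annotated transcript length, the median difference between experiments was 0.16, 0.02, -0.11 and -0.22 in 4 classes of transcript length of 3384 to 3388 genes each, shortest first, and Slc1a2 and Aqp4 are in the longest class. Agt, at 1891 bases, and S100b, at 1484, are in the shortest. The part of transcript length in these differences was not tested.

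Of the members that were not called, S100b had 80.9 and 77.6 CPM in experiment 1 and 90.6 and 91.7 CPM in experiment 2, a log2 difference of 0.20 (SE 0.07, adjusted limma p 0.0664). It passed the threshold after median-of-ratios scaling (adjusted p 0.0427) and after quantile normalization (0.0383). Gjb6 was higher in experiment 2 in both genotypes (0.18, SE 0.10) and Gja1 lower in both (-0.11, SE 0.07), so the connexins differed in sign, and neither passed the test. Aldh1l1 had a difference of 0.15, Gfap 0.15, Aldoc 0.04 (-0.07 after quantile normalization), Aqp4 0.04 and Slc1a3 -0.10. In all, 4 members (Agt, S100b, Gjb6 and Aldh1l1) had both experiment 2 libraries above both of experiment 1, against 30.1% of all genes, and 2 (Slc1a2 and Gja1) had them below, against 37.2%.

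Other astrocyte genes, and partners and relatives of the members that are not all astrocyte genes, were read from lists fixed for this report. Of these companion genes, 28 were called between experiments, a share no larger than the 23.7% called of all genes tested. The number tested is given below for most lists. Fewer of the 28 were called in each of the 4 fits that leave out 1 library. Such a fit has 1 library on 1 side, so a lost call does not show that it rested on the library left out. Those called in each of these 4 fits were Slc4a4, Dtna, Dag1, Nfib, Notch1, Mas1 and Mme. Without a mean-variance trend 4 remained (Dag1, Notch1, Mas1 and Ptgs2), and none of the 28 changed sign in any alternative. After quantile normalization 23 remained, and the calls lost included Clu, Apoe, Lhx2 and Gjc3. With median-of-ratios scaling 26 remained. Of 30 further astrocyte-enriched genes, 0 were called by genotype with or without the block. Their median log2 difference was 0.05 (0.0095 without WT replicate 1 and 0.14 without WT replicate 2), and 14 were higher and 5 lower in TCRb-/- within both experiments. Between experiments, 6 were called higher and 2 lower, against 8.95% and 14.7% of all genes tested. The list's median was 0.09 (0.012 without WT replicate 1 and 0.03 without TCRb-/- replicate 2). Apoe, the main lipid carrier of the brain, had 1785 and 2244 CPM in TCRb-/- and 1511 and 2038 CPM in WT (0.38, adjusted limma p 0.0318 between experiments). Clu, a secreted chaperone, rose by 0.27 (0.0493), a call also lost with no filter and with a pseudocount of 5. Ndrg2, the third in abundance, had a difference of 0.19 that did not pass (0.0945). Slc4a4, a sodium bicarbonate cotransporter, fell from 48.4 to 32.9 CPM in TCRb-/- and from 47.8 to 35.3 CPM in WT (-0.49, 0.00885). Apoe and Clu are also made by choroid plexus and ependymal cells.

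The genes that work with the members gave a mixed picture. Of 13 potassium buffering and endfoot genes, 0 were called by genotype, and 6 were higher and 0 lower in TCRb-/- within both experiments. Mlc1, an endfoot membrane protein, had 176 and 173 CPM in TCRb-/- and 145 and 155 CPM in WT (0.22). Between experiments, Atp1b2, a sodium pump subunit, rose by 0.36 (adjusted limma p 0.0180), and Trpv4, a cation channel that choroid plexus also makes, rose by 1.29 (0.0178). Dtna and Dag1, parts of the complex that anchors Aqp4 at the endfoot, fell by 0.42 (0.00761) and 0.60 (0.00505), while Aqp4 itself differed by 0.04.

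Of 8 glutamate and GABA uptake and recycling genes tested, 0 were called in either comparison. Glul, the glutamine synthetase of astrocytes, had 138 and 152 CPM in TCRb-/- and 156 and 151 CPM in WT. Glud1, glutamate dehydrogenase, had 194 and 204 against 215 and 196 CPM. Among the other SLC1 transporters, Slc1a1, which is mainly neuronal, fell between experiments by 0.39 (adjusted limma p 0.0154), while Slc1a4 (-0.16) and Slc1a6 (0.39) did not pass.

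Of 19 astrocyte transcription factors and Notch genes, 0 were called by genotype. Between experiments, 14.7% of all genes tested were called lower and 8.95% higher, and of these 19 genes 6 fell in experiment 2, with none higher. They were Nfib (-0.42, adjusted limma p 0.00907), Nfix (-0.34, 0.0299), Stat3 (-0.34, 0.0219), Lhx2 (-0.42, 0.0289), Zbtb20 (-0.33, 0.0321) and Notch1 (-1.18, 0.00780). The list's median was -0.22, or -0.13 without TCRb-/- replicate 2, -0.11 with a pseudocount of 5 and -0.11 at a filter of 10 CPM. Id4, the most abundant of them, had 379 and 341 CPM in TCRb-/- and 376 and 359 CPM in WT and did not pass, nor did Id3 (0.08).

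Genes of the angiotensin system were read beside Agt. Of 16, 12 were listed and 11 tested, with 0 called by genotype. Ren1, which encodes the renin that cleaves angiotensinogen, was listed at a mean of 0.532 CPM and was below the filter. Ace, the converting enzyme, rose in experiment 2 from 11.4 to 24.7 CPM in TCRb-/- and from 9.73 to 17.1 CPM in WT (0.91, adjusted limma p 0.0131). Mas1, a receptor of an angiotensin fragment, fell from 7.40 to 0.650 CPM and from 10.8 to 1.79 CPM (-2.21, 0.00515). Mme, neprilysin, fell by 1.20 (0.00860). Atp6ap2, the prorenin receptor, was the most abundant, at 428 to 518 CPM, and with Thop1 and Rnpep did not pass. Ace is also a choroid plexus gene and Mas1 a hippocampal one, and of 8 cortex and hippocampus markers 5 were called lower and 0 higher. The part of tissue makeup in the Ace and Mas1 differences was not tested.

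The relatives of the other members were mostly not called. Of 8 other intermediate filament genes tested, 0 were called in either comparison (with the block, 1 between experiments), with Nefl, Ina and Nefm, which are neuronal, the most abundant. Of 9 other connexins and pannexins, 1 was called between experiments, the oligodendrocyte-lineage gene Gjc3 (-0.25, adjusted limma p 0.0460), whose call was lost with the block (0.0540), and Gjb1 (0.02) did not pass. Aqp1, the aquaporin of the choroid plexus, rose by 1.06 (0.0221), and Aqp11 (0.40) and Aqp9 (-0.21) did not pass. Of 7 other S100 genes and partners tested, S100a1 rose by 0.31 (0.0440) and S100pbp fell by 0.52 (0.0194), and S100a16 (-0.03) and S100a10 (0.19) did not pass. Aldoa, the aldolase of most tissues, had 2714 and 3304 CPM in TCRb-/- and 2850 and 3130 CPM in WT and did not pass, nor did Aldh1l2 (0.13), the mitochondrial relative of Aldh1l1.

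Genes of reactive astrocytes were read beside the Gfap difference. Of 11 pan-reactive genes, 6 were listed and 5 tested, and 0 were higher in TCRb-/- within both experiments. Serpina3n had 15.9 and 17.6 CPM in TCRb-/- and 15.1 and 18.3 CPM in WT, S1pr3 12.4 and 7.55 against 11.3 and 9.88 CPM, and Hspb1 2.97 and 4.202 against 2.98 and 4.02 CPM. Of 6 inflammation-associated reactive genes tested, 5 were higher and 0 lower in TCRb-/- within both experiments, with 0 called by genotype and a median of 0.15 (0.098 with a pseudocount of 5, 0.25 without TCRb-/- replicate 1, 0.23 without TCRb-/- replicate 2 and 0.27 without WT replicate 2). Amigo2 had 31.5 and 38.3 CPM in TCRb-/- and 28.1 and 35.9 CPM in WT and passed between experiments only with the block (adjusted limma p 0.0420), and Serping1, a complement inhibitor, 4.96 and 4.10 against 4.35 and 3.62 CPM. Of 5 ischaemia-associated genes tested, 0 were called by genotype. Tm4sf1, which endothelial cells also make, had 30.8 and 31.1 CPM in TCRb-/- and 20.8 and 27.9 CPM in WT (0.35). Cd14 (-0.18) and Sphk1 (-0.04) were below 3 CPM in every library. Between experiments, Fbln5 rose by 0.52 (adjusted limma p 0.0312) and Ptgs2, which neurons also make, fell by 1.00 (0.0185). Lcn2, Steap4, Timp1, Cxcl10 and Osmr, also of the pan-reactive list, were not among the gene rows under these symbols, so their levels were not read.

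**Figure D4:**
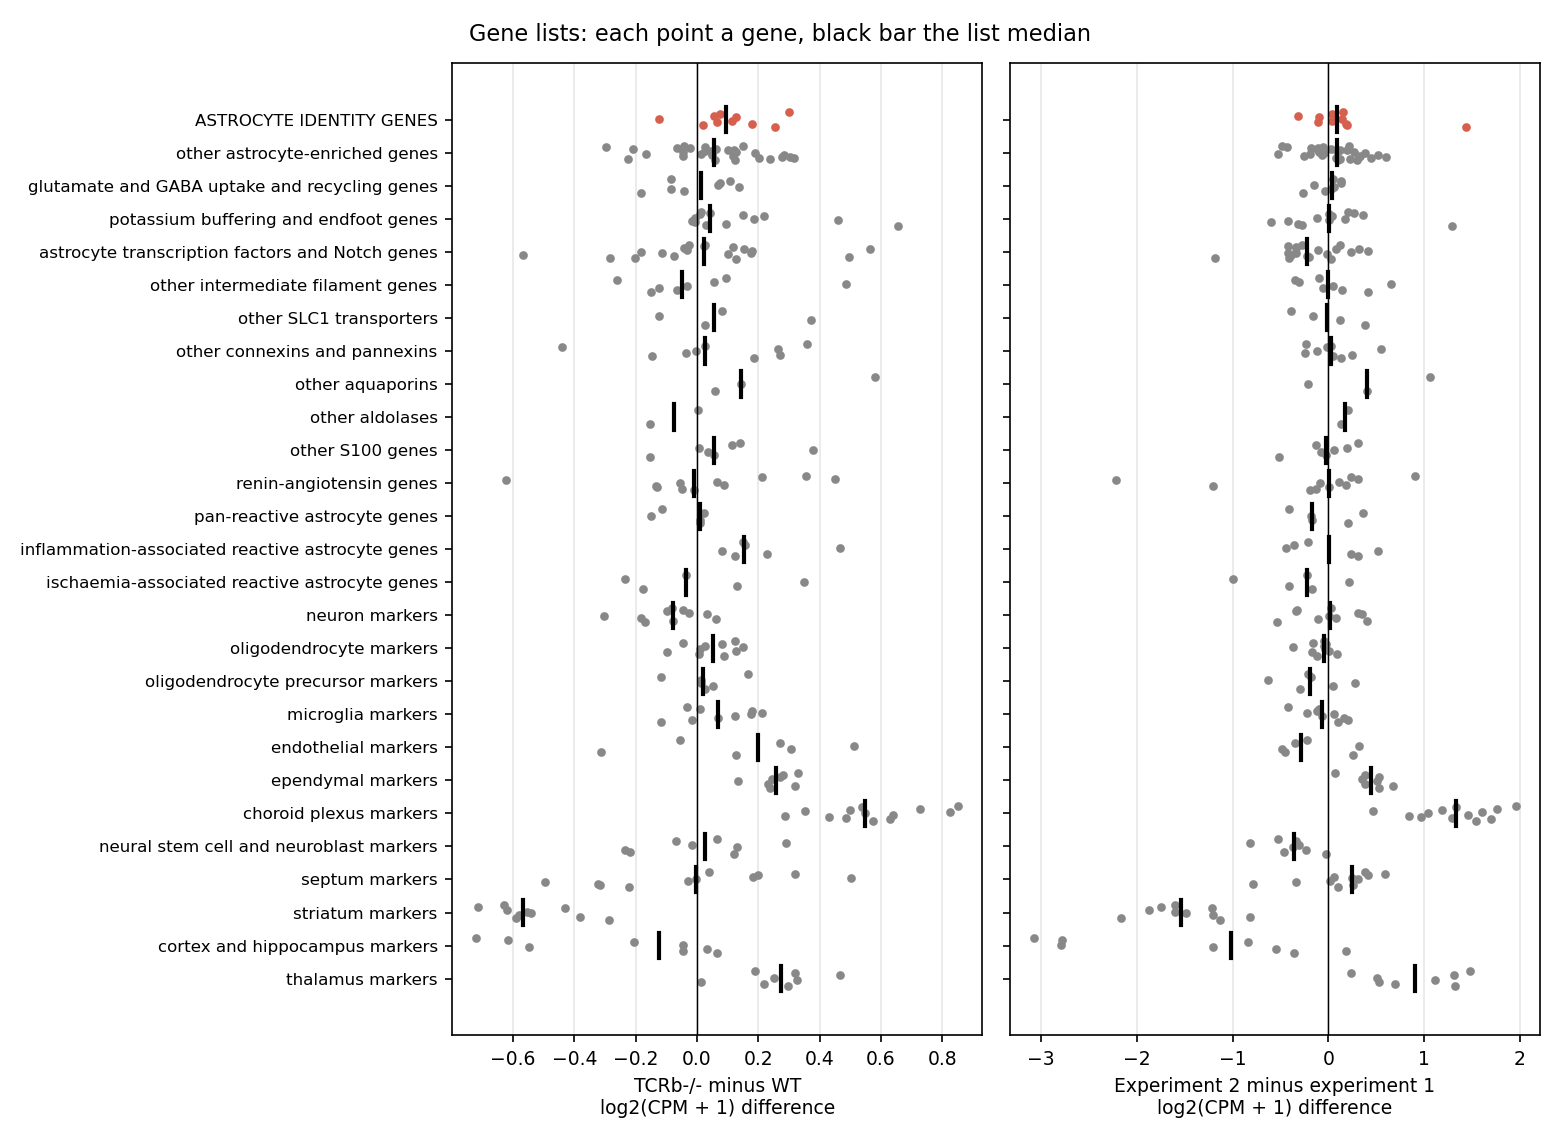
Genotype difference (left) and difference between experiments (right) of each tested gene of every list, on the log2(CPM + 1) scale, with a black bar at the list's median. The x axes differ in range. Astrocyte identity genes have medians of 0.10 and 0.09, while on the right choroid plexus markers have a median of 1.33 and striatum markers -1.54. The left panel averages both experiments, and the striatum median there (-0.57) was 0.17 in experiment 1 and -1.26 in experiment 2.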

How the data were processed

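RNA was taken from the cleared lysate of pooled, homogenised septal tissue, per the labels' protocols, and sequenced in 4 libraries, 2 per genotype. The submitters' processing notes name build mm10, HISAT2 2.1.0, SAMtools 1.3, HTSeq 0.9.1, R 4.0.5 and limma 3.46.0. The annotation, the strand setting and the rule for keeping rows were not given in the sources used here. The deposited values are log2 values, 1 column per library. They fit log2 of CPM with 0.5 added to the reads and 1 to the library total, and solving for the total gave whole reads for 100% of values within 0.001 reads. Of 15426 rows, 17 spike-in rows were left out.

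Recovered reads were expressed as log2(CPM + 1), which understates changes of low genes, and those whose mean reached 1 CPM were fitted with limma 3.58.1 in R 4.3.3 (empirical Bayes with a trend, two-sided). Genotype was the only term in 1 fit and experiment in the other. The fits were tested on simulated data that held no difference between experiments, so that test does not show their power in these data. Tables were made in Python 3.11.15 (pandas 2.3.3, numpy 2.4.6) and figures with matplotlib 3.10.9. Transcript lengths and positions are from GENCODE M21 (GRCm38, the assembly of mm10).

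The labels give replicate 1 and 2 the tags of experiment 1 and 2, which pairs the libraries by experiment. Across genes, the differences between experiments in the 2 genotypes correlated at 0.719. The block by experiment (in the experiment fit, by genotype) was an alternative, beside other pseudocounts (0.1 and 5), filters (none and 10 CPM), scalings, weights and leaving out each library.

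All 27 gene lists, that of the members included, were chosen with earlier results of these data known. The rule for naming genes took all members, the 3 most abundant genes of each companion list, the called genes of a list where 5 or fewer passed, and the 5 genes most like the members' mean profile. The 6 called transcription factors and Notch genes, Slc4a4, Tcf7l2, Ttr and Ren1 are given beyond it, chosen after their values were seen, and 3 genes under the rule are not reported here. Counting error is small for the members, but not for companion genes near the filter of 1 CPM. The p-values measure only the spread between these libraries.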

Additional observations from a re-analysis of the deposited data

Results flagged for a closer look

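For 3 members the sign of a difference changed between strata. Each stratum holds 1 library per side, so the change was not tested. S100b was higher in TCRb-/- than in WT in experiment 1 by 0.060 (log2) and lower in experiment 2 by 0.018 (-0.018). Slc1a3 was lower in experiment 2 than in experiment 1 among TCRb-/- libraries (-0.20) and about level among WT libraries (0.0060). Aqp4 was higher in experiment 2 among TCRb-/- libraries (0.091) and slightly lower among WT libraries (-0.012).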

How the results depend on the processing

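All alternatives were planned. The count of genes called by genotype was 2 with the replicate block and 2 with the block and voom weights, and 0 under every other alternative with all libraries. The block called 0 members by genotype and changed no member's call. Without a mean-variance trend, 629 genes and 1 member (Agt) were called between experiments, and with all libraries no alternative called more than 3437 genes. Aldoc's difference between experiments was -0.068 after quantile normalization. S100b gained a call between experiments after median-of-ratios scaling and quantile normalization. The members' median ran from 0.078 to 0.096 by genotype and from 0.087 to 0.13 between experiments over the alternatives with all libraries. The cause of these shifts was not tested. At a filter of 10 CPM no other aquaporin or endothelial marker was left.

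Leaving out 1 library unbalances genotype and experiment, and the lone library is assumed to vary like the other group. Genes called ranged from 0 to 47 by genotype (47 without TCRb-/- replicate 1) and from 1406 to 3390 between experiments. Members called ranged from 1 to 2 between experiments, with 1 without TCRb-/- replicate 1, and were 0 by genotype. Their median ranged from 0.088 to 0.13 by genotype and from -0.011 to 0.11 between experiments. Ranges that crossed 0 by genotype were -0.54 to 1.04 for Agt, -0.11 to 0.22 for Slc1a2 and -0.099 to 0.14 for S100b. Between experiments they were -0.0053 to 0.31 for Gfap, -0.024 to 0.10 for Aqp4, -0.21 to 0.019 for Slc1a3 and -0.018 to 0.099 for Aldoc. Depth limits none of the members, which had at least 770 reads in each library.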

Other observations

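Ratios of 2 members within a library do not depend on the library total. Gfap reads were 5.25 and 5.55 times Aldh1l1 reads in TCRb-/- replicates 1 and 2, and 4.10 and 3.91 times in WT replicates 1 and 2. The genotypes did not overlap in that ratio, which was chosen after the values were seen and was not tested. Slc1a3 reads were 2.24 and 2.46 times Slc1a2 reads in TCRb-/- and 2.00 and 2.49 times in WT, higher in experiment 2 in both genotypes. Gja1 reads were 2.29 and 1.95 times Gjb6 reads in TCRb-/- and 2.59 and 2.02 times in WT, lower in experiment 2 in both. Agt reads were 1.296 and 3.68 times Aldh1l1 reads in TCRb-/- and 1.14 and 2.46 times in WT.

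The 5 genes whose centred log2 profile over the 4 libraries lay nearest to the members' mean profile were Emc7, Tmem222, Nudt7, Tpd52l1 and Chic2, at Euclidean distances of 0.014 to 0.021. None is on an astrocyte list. The members themselves lay from 0.088 (Gjb6) to 1.29 (Agt) from their own mean, over the same 4 libraries. The 5 genes were picked as the nearest of all 13912 genes tested, so their smaller distances follow from the choice. The mean profile includes Agt, whose difference between experiments was 1.44, where the next highest of a member was 0.20.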
